A study of Homo sapiens with 6 samples.

Results

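The TNF family genes examined here are 10 genes taken by symbol from the 58174 genes listed for each sample. They comprise 4 ligands (TNF, LTB, TNFSF9 and TNFSF15), 4 receptors (TNFRSF1A, TNFRSF1B, TNFRSF9 and TNFRSF11B) and 2 intracellular adaptors (TRAF1 and TRAF2). RNA-seq was performed on T24, an established human bladder cancer cell line, in 6 samples. All 6 carried a lentiviral shRNA under puromycin selection, either a scrambled control (shRNA-NC, 3 samples) or 1 hairpin against UBC9 (shRNA-UBC9, 3 samples), so a response to that hairpin and a response to the loss of UBC9 cannot be told apart. UBC9 is the only conjugating enzyme that attaches SUMO to proteins. The labels do not say whether replicates were separate cultures, so p-values measure only the spread between these samples, which may be technical.

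TNF is a trimeric cytokine that is made as a membrane protein and released by the protease ADAM17. Its main receptor TNFRSF1A carries a death domain and recruits TRADD, RIPK1, TRAF2 and the cIAP ubiquitin ligases, which leads to activation of NF-kappaB and JNK. TNFRSF1B and TNFRSF9 have no death domain and bind TRAF proteins directly. In bladder cancer the family is best known from BCG therapy, in which TNF is one of the cytokines released.

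Expression was given as RPKM, in which reads are scaled to the length of the gene and to the mapped reads of the sample. Levels can be compared between genes only as far as that length fits the transcripts present, which was not tested. The RPKM values rose in steps worth 1 read, from which the total was about 29848000 to 34635000 reads in the shRNA-NC samples and 28219000 to 36059000 reads in the shRNA-UBC9 samples. The 5 epithelial markers KRT7, KRT8, KRT18, KRT19 and EPCAM summed to 938.1 to 1108 RPKM in shRNA-NC and to 425.8 to 563.5 RPKM in shRNA-UBC9. The keratins set this sum, and each of them was lower in shRNA-UBC9. KRT7 alone of the keratins was called lower (log2 fold change -1.11, adjusted p = 0.000578, limma). EPCAM went the other way, with 0.412, 0.986 and 0.575 RPKM in shRNA-NC and 2.51, 1.27 and 0.732 RPKM in shRNA-UBC9. Its groups overlapped and it was not called (adjusted p = 0.0984, limma). In bulk samples of a cell line a change in all cells and a change in some of them cannot be told apart. The part of the keratin difference in the results given next was not tested. Of 7 urothelial markers GATA3 alone reached 0.5 RPKM in any sample, and KRT5 and KRT20 were at 0 in all 6. The 11 leukocyte markers, among them PTPRC and CD3E, summed to 0.818 to 1.51 RPKM in shRNA-NC and 0.792 to 2.05 RPKM in shRNA-UBC9. Of these markers 2, CD14 and LYZ, reached 0.5 RPKM in any sample.

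Limma was run on log2(RPKM + 0.1) over the 12428 genes with at least 0.5 RPKM in at least 3 samples. Unless another setting is named, fold changes from limma refer to that scale, where the change of a low gene comes out too small. A gene was called with an absolute log2 fold change above 1 and an adjusted p-value (Benjamini-Hochberg) below 0.05. Of the 10 members 8 passed the filter, and 4 of these were called higher in shRNA-UBC9: TNF, TNFRSF9, TNFRSF11B and TRAF1. Among all tested genes 5.2% were called higher. By limma 0 members were called lower, where 2.7% of the tested genes were, and 0 were lower at an unadjusted p below 0.05 or by limma voom on recovered reads. TNFRSF9 passed the filter through its shRNA-UBC9 samples alone, so its call was favoured by the filter. For 6 of all 10 members the lowest shRNA-UBC9 sample lay above the highest shRNA-NC sample, which was so for 18.4% of the 22896 genes above 0 in any sample and for 25.7% of the tested genes.

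**Figure D1:**
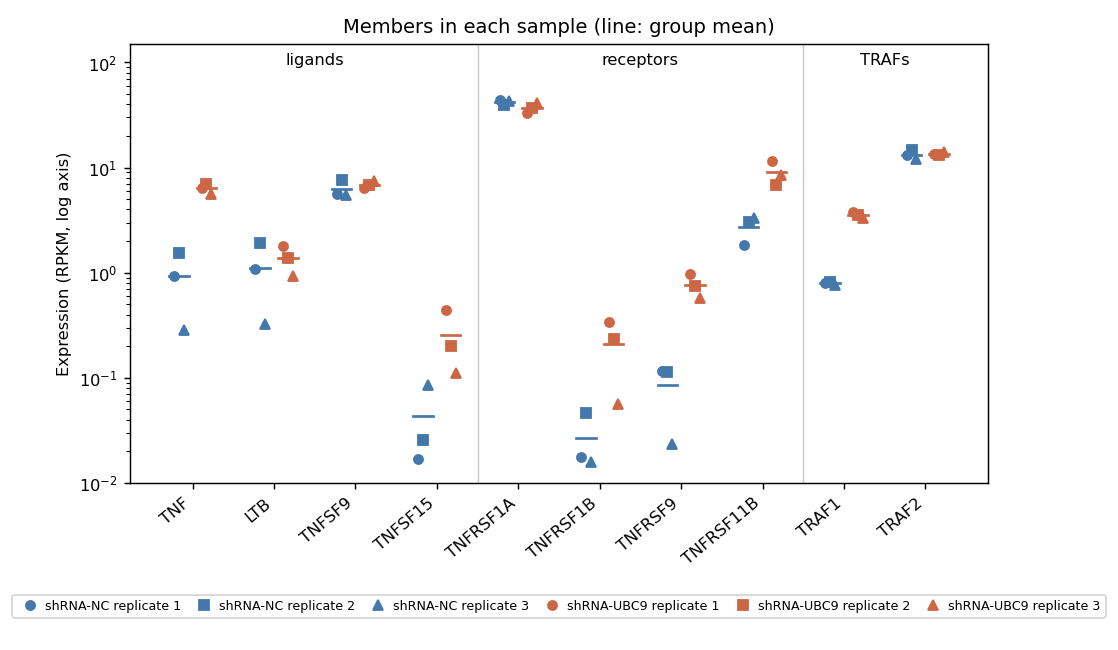
Expression of the 10 members in each sample, as RPKM on a log axis, with ligands, receptors and TRAFs from left to right. Circles, squares and triangles are replicates 1, 2 and 3 of shRNA-NC (blue) and shRNA-UBC9 (orange), and lines are group means. TNF, TNFSF15, TNFRSF1B, TNFRSF9, TNFRSF11B and TRAF1 do not overlap between the groups, while LTB, TNFSF9, TNFRSF1A and TRAF2 do.

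TNF and LTB lie side by side in the class III region of the major histocompatibility complex. In GRCh38 (GENCODE release 44), TNF spans chr6:31575565-31578336 on the plus strand and LTB spans chr6:31580525-31582522 on the minus strand, with 2188 bases between them. RefSeq promoter windows (GRCh38.p14) were found for 9 of the 10 members, as 12 windows. The member without a window was TNFRSF11B, which was called higher. The 250 bases before the start were searched on both strands for the NF-kappaB motif (kappaB) and for the AP-1 motif TGANTCA. The kappaB motif was present in the windows of LTB and TNFRSF9 and in 5.21% of all 35116 windows. The AP-1 motif was present in the windows of TNFRSF9 and TNFSF15 and in 6.57% of all windows. The next lines give the windows of TNF, LTB and TNFRSF9, 5′ to 3′ on the strand of the gene. TNF and TNFRSF9 were called and LTB is the neighbour of TNF. The windows of TRAF1, which was called too, are not printed. Capitals mark motif matches.

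TNF, chr6:31575315-31575564, plus strand: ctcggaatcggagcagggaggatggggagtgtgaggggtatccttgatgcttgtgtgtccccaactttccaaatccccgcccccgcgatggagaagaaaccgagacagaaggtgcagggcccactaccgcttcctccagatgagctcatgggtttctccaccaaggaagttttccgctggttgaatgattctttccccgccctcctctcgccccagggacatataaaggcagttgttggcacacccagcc

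LTB, chr6:31582426-31582675, minus strand: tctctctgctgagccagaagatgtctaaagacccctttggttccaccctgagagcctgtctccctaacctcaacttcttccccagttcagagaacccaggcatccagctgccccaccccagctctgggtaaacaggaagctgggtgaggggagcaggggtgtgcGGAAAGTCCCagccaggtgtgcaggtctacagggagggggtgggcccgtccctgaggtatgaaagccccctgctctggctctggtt

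TNFRSF9, chr1:7940840-7941089, minus strand: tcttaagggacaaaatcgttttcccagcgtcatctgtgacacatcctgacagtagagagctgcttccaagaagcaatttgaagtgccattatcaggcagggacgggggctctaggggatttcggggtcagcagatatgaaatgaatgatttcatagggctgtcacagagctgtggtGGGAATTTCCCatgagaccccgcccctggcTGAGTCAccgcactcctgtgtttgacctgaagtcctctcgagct

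The kappaB match in the LTB window lay 86 to 77 bases before the start. In the TNFRSF9 window 2 overlapping matches on opposite strands spanned 74 to 64 bases before the start, and the AP-1 match lay 44 to 38 bases before it. In the TNFSF15 window the AP-1 match TGAGTCA lay 120 to 114 bases before the start. This window, chr9:114792531-114792780 on the minus strand, lay inside the GENCODE span of the gene, chr9:114784652-114806039. The TNFRSF9 window likewise lay inside its gene, chr1:7915871-7943165. The start used for these 2 genes was thus not their outermost annotated start. The TNF window held neither motif, and neither did the windows of TRAF1, which says only that these letters are not in them. A match is a description of the sequence, and no binding was measured.

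Among the ligands, TNF itself was higher in shRNA-UBC9. Its level was 0.940, 1.55 and 0.282 RPKM in shRNA-NC replicates 1, 2 and 3, resting on 47, 90 and 16 reads. In shRNA-UBC9 it was 6.45, 7.01 and 5.58 RPKM, from 390, 414 and 264 reads. The lowest shRNA-UBC9 sample thus lay above the highest shRNA-NC sample, and the groups did not overlap. The mean rose 6.87-fold, from 0.924 ± 0.634 to 6.35 ± 0.72 RPKM (SD, n = 3 each). The log2 fold change was 2.89 (standard error 0.45, 95% interval 1.86 to 3.91, adjusted p = 0.00203, limma). Without shRNA-NC replicate 3, the lowest sample, the log2 fold change was 2.29.

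LTB encodes lymphotoxin beta, which anchors lymphotoxin heterotrimers to the membrane and signals through LTBR. LTB had 1.09, 1.92 and 0.327 RPKM in shRNA-NC and 1.81, 1.37 and 0.923 RPKM in shRNA-UBC9, so the groups overlapped. These values came from 50, 102 and 17 reads and from 100, 74 and 40 reads. Its log2 fold change was 0.49 (95% interval -0.67 to 1.66, adjusted p = 0.478, limma), an interval too wide to tell a rise of the called size from none. The sign turned without shRNA-NC replicate 3, to -0.13.

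In shRNA-NC TNF and LTB varied together from sample to sample, with replicate 2 highest and replicate 3 lowest. Of 20 tested genes known to respond to TNF, described below, replicate 2 was highest for 18 and replicate 3 lowest for 18. The order was thus not particular to these neighbours. LTB was at 116.2%, 123.7% and 116.0% of the TNF RPKM in replicates 1, 2 and 3, although both genes varied between samples by far more than this. In replicate 3 the percentage rests on 17 LTB and 16 TNF reads, so counting error limits how closely these percentages can be compared. The SD of log2 values in shRNA-NC was 1.08 for TNF and 1.14 for LTB, against a median of 0.13 over all tested genes. In shRNA-UBC9 LTB was at 28%, 19.5% and 16.5% of TNF, and the SD of log2 values was 0.16 for TNF and 0.45 for LTB, against a median of 0.14 over all tested genes. The log2 ratio of LTB to TNF was 0.22 ± 0.07 in shRNA-NC and -2.18 ± 0.36 in shRNA-UBC9 (SD, n = 3 each), with no overlap (exact permutation test, two-sided, p = 0.1). This is the smallest p that 3 samples against 3 allow, also after adjustment over the 3 ratios compared.

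TNFSF9 encodes the ligand of TNFRSF9, also known as 4-1BB ligand. TNFSF9 was measured at 5.61, 7.56 and 5.43 RPKM in shRNA-NC and at 6.38, 6.82 and 7.51 RPKM in shRNA-UBC9, with overlapping groups. Its log2 fold change of 0.17 had a 95% interval of -0.15 to 0.48 (adjusted p = 0.38, limma). The interval lay within the fold threshold on both sides.

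TNFSF15 encodes TL1A, the ligand of TNFRSF25. It was among the lowest members, with 0.017, 0.026 and 0.086 RPKM in shRNA-NC and 0.446, 0.201 and 0.112 RPKM in shRNA-UBC9. These values came from 4, 7 and 23 reads and from 127, 56 and 25 reads, and the highest shRNA-NC sample was just below the lowest shRNA-UBC9 sample. The gene did not pass the filter. The summed reads were 34 and 208, a depth-corrected ratio of 6.04 (95% interval 4.19 to 8.96, exact, counting error only). Single samples set much of this ratio, which was 12.3 without shRNA-NC replicate 3 and 3.69 without shRNA-UBC9 replicate 1. With all 22896 detected genes tested, of which 3.55% were called higher, TNFSF15 was not called (log2 fold change 1.23, adjusted p = 0.0686, limma).

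Among the 4 receptors of the set, TNFRSF1A was by far the most abundant. This receptor had 43.9, 39.8 and 43.5 RPKM in shRNA-NC and 32.7, 37.0 and 41.3 RPKM in shRNA-UBC9, and the groups overlapped. The log2 fold change was -0.20 (95% interval -0.44 to 0.04, adjusted p = 0.163, limma).

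TNFRSF1B, the second TNF receptor, which is found mainly on leukocytes and endothelial cells, was near the limit of detection in these cells. It had 0.018, 0.046 and 0.016 RPKM in shRNA-NC, from 2, 6 and 2 reads. In shRNA-UBC9 it had 0.339, 0.234 and 0.056 RPKM, from 46, 31 and 6 reads. Replicate 3 of shRNA-UBC9 was close to replicate 2 of shRNA-NC, with the same number of reads in a smaller library. The gene did not pass the filter. The summed reads, 10 and 83, gave a depth-corrected ratio of 8.20 (95% interval 4.24 to 17.7, exact, counting error only), which became 13.3 without shRNA-NC replicate 2. With all detected genes tested it was not called (log2 fold change 1.17, adjusted p = 0.0788, limma). TNFRSF1B stayed at 1.04%, 0.631% and 0.137% of TNFRSF1A in the shRNA-UBC9 samples and at 0.041%, 0.115% and 0.036% in shRNA-NC. The exact permutation test of this ratio gave p = 0.1 (two-sided), and p = 0.2 with a pseudocount of 1. TNFRSF1B was below the pseudocount of 0.1 in 4 of the 6 samples. The endothelial markers PECAM1, CDH5 and VWF summed to 2.64 to 3.26 RPKM in shRNA-NC and to 0.316 to 1.07 RPKM in shRNA-UBC9. CDH5 made up most of the sum in every sample, with PECAM1 and VWF at most 0.071 RPKM in any sample. CDH5 was itself called lower in shRNA-UBC9 (log2 fold change -2.20, adjusted p = 0.00288, limma).

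TNFRSF9 encodes 4-1BB, a costimulatory receptor best known on activated T cells. TNFRSF9 was at 0.116, 0.114 and 0.023 RPKM in shRNA-NC, from 22, 25 and 5 reads. It reached 0.972, 0.740 and 0.571 RPKM in shRNA-UBC9, from 222, 165 and 102 reads. All 3 shRNA-UBC9 samples were several times above the highest shRNA-NC sample. The log2 fold change was 2.24 (standard error 0.34, adjusted p = 0.00174, limma). It was 0.69 with a pseudocount of 1 and the call was lost, while the ratio of summed reads was 9.29 (95% interval 6.97 to 12.6, exact, counting error only). Even in shRNA-UBC9 TNFRSF9 had a lower RPKM than its ligand TNFSF9 in every sample. The leukocyte marker sums given above overlapped between the groups, and CD3E, a defining T cell gene, was at most 0.185 RPKM in any sample. CD14 had 0.657, 0.260 and 0.642 RPKM in shRNA-NC and 0.706, 0.692 and 0.752 RPKM in shRNA-UBC9. Its groups did not overlap and it was not called (adjusted p = 0.25, limma). LYZ overlapped, at up to 0.536 RPKM in shRNA-NC and 0.786 RPKM in shRNA-UBC9. Any part of leukocyte RNA in the TNFRSF9 values was not tested.

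TNFRSF11B encodes osteoprotegerin, a secreted decoy receptor that binds TNFSF11 (RANKL) and TNFSF10 (TRAIL). Its level was 1.84, 3.01 and 3.32 RPKM in shRNA-NC and 11.7, 6.78 and 8.52 RPKM in shRNA-UBC9. The groups did not overlap, and the mean rose 3.299-fold, from 2.72 ± 0.78 to 8.99 ± 2.48 RPKM (SD, n = 3 each). The log2 fold change was 1.69 (standard error 0.25, 95% interval 1.12 to 2.26, adjusted p = 0.0016, limma). Of its ligands, TNFSF11 was at 0 in all 6 samples. TNFSF10 had 0.752, 1.07 and 2.73 RPKM in shRNA-NC and 0.727, 2.49 and 0.520 RPKM in shRNA-UBC9, and was not called (adjusted p = 0.654, limma).

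The adaptors TRAF1 and TRAF2 form mixed complexes at TNF receptors. TRAF2 has a RING domain and brings in the cIAP proteins, while TRAF1 lacks a RING domain and is itself a known NF-kappaB target. TRAF1 was at 0.795, 0.810 and 0.770 RPKM in shRNA-NC and at 3.82, 3.55 and 3.302 RPKM in shRNA-UBC9. Both groups were tight and far apart. The mean rose 4.49-fold, from 0.792 ± 0.020 to 3.56 ± 0.26 RPKM (SD, n = 3 each). On the log2 scale limma gave 2.03 (standard error 0.12, 95% interval 1.77 to 2.3, adjusted p = 1.96e-05, limma). This was the smallest standard error among the 4 called members.

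TRAF2 was at 13.1, 14.6 and 11.98 RPKM in shRNA-NC and at 13.4, 13.2 and 13.95 RPKM in shRNA-UBC9. The groups overlapped, and the log2 fold change of 0.04 had a 95% interval of -0.18 to 0.25 (adjusted p = 0.793, limma). TRAF1 was at 6.06%, 5.56% and 6.43% of TRAF2 in shRNA-NC and at 28.6%, 26.9% and 23.7% in shRNA-UBC9. The log2 ratio of TRAF1 to TRAF2 was -3.90 ± 0.11 in shRNA-NC and -1.90 ± 0.13 in shRNA-UBC9 (SD, n = 3 each; exact permutation test, two-sided, p = 0.1).

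**Figure D2:**
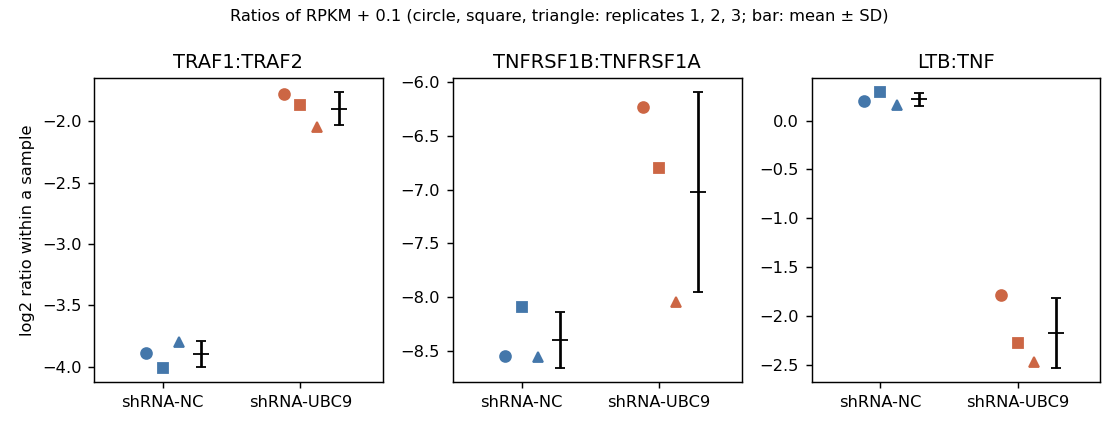
Log2 ratios within each sample of TRAF1 to TRAF2, TNFRSF1B to TNFRSF1A and LTB to TNF, each computed on RPKM + 0.1. Points are replicates and bars are the mean ± SD of 3 samples. The groups do not overlap in any of the 3 ratios, and the shRNA-UBC9 spread is widest for TNFRSF1B to TNFRSF1A (SD 0.93). For that ratio the groups nearly meet, with shRNA-NC replicate 2 at -8.10 and shRNA-UBC9 replicate 3 at -8.05.

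The order of levels differed between the groups. By mean RPKM in shRNA-NC it was TNFRSF1A, TRAF2, TNFSF9, TNFRSF11B, LTB, TNF, TRAF1, TNFRSF9, TNFSF15 and TNFRSF1B. The ranges of the samples overlapped between TNFRSF11B and LTB, LTB and TNF, TNF and TRAF1, TNFRSF9 and TNFSF15, and TNFSF15 and TNFRSF1B. In shRNA-UBC9 TNFRSF1A and TRAF2 stayed first and second, followed by TNFRSF11B, TNFSF9 and TNF, whose neighbouring ranges overlapped. TRAF1, LTB, TNFRSF9, TNFSF15 and TNFRSF1B came next, and LTB overlapped TNFRSF9, as TNFSF15 did TNFRSF1B.

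**Figure D3:**
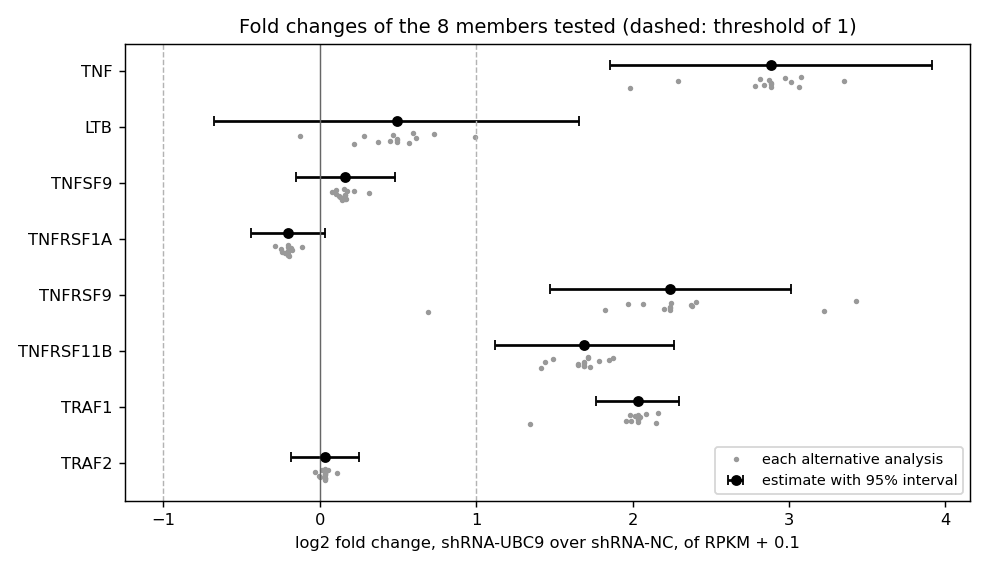
Log2 fold changes, shRNA-UBC9 over shRNA-NC, of the 8 members that passed the filter, on RPKM + 0.1. Black points are estimates with 95% intervals from limma, and dashed lines mark the threshold of 1. Grey points are the alternative analyses, some of them on another scale. TNF, TNFRSF9, TNFRSF11B and TRAF1 have intervals wholly above 1, and those of LTB, TNFSF9, TNFRSF1A and TRAF2 include 0.

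Of 14 other TNF superfamily ligands 7 were tested, with a median log2 fold change of 0.23 against 0.00482 over all tested genes. Among them 2 were called higher and 0 lower, against 5.2% and 2.7% of all tested genes. TNFSF8, the ligand of CD30, was at 0.023, 0 and 0.031 RPKM in shRNA-NC and rose to 1.70, 1.36 and 0.634 RPKM in shRNA-UBC9 (log2 fold change 3.41, standard error 0.38, adjusted p = 0.000455, limma). TNFSF13B, the B cell survival factor BAFF, rose from 0.140 ± 0.007 to 1.15 ± 0.82 RPKM (SD, n = 3 each). Both passed the filter through shRNA-UBC9 alone, and TNFSF13B lost its call with a pseudocount of 1. At an adjusted p below 0.05 without the fold threshold 3 of these ligands were higher and 1 lower. By this criterion 2339 of all 12428 tested genes were higher and 2237 lower. The most abundant of these ligands was CD70, with 21.2 ± 2.0 and 28.3 ± 2.7 RPKM (SD, n = 3 each), and its log2 fold change of 0.42 was below the threshold.

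Of 25 other receptors 14 were tested, with a median log2 fold change of 0.09. Among them 0 were called higher and 2 lower, against 5.2% and 2.7% of all tested genes. The 2 were the death receptors FAS, with a log2 fold change of -1.19, and TNFRSF21, with -1.10. Another death receptor, TNFRSF10A for TRAIL, was on the other side, with 7.39 ± 0.46 RPKM in shRNA-NC and 13.7 ± 1.2 RPKM in shRNA-UBC9 (SD, n = 3 each), 0.88 on the log2 scale (adjusted p = 0.000482, limma). At an adjusted p below 0.05 without the fold threshold 4 receptors were higher and 3 lower, against 2339 and 2237 of 12428 tested genes. With single samples left out, the call of FAS was kept in 1 of 6 fits and that of TNFRSF21 in 3 of 6. FAS was not called without shRNA-NC replicate 1, 2 or 3 or without shRNA-UBC9 replicate 2 or 3. TNFRSF21 was not called without shRNA-NC replicate 2 or without shRNA-UBC9 replicate 2 or 3. With a pseudocount of 1 neither was called. TNFRSF12A, the TWEAK receptor, was the most abundant receptor, at 110.3 ± 11.1 and 191.2 ± 11.3 RPKM (SD, n = 3 each). It missed the fold threshold, with 0.80 on the log2 scale (adjusted p = 0.000748, limma).

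All 5 other TRAF genes were tested, with a median log2 fold change of -0.15. None was called in either direction, where 5.2% of all tested genes were called higher and 2.7% lower. At an adjusted p below 0.05 alone, TRAF3 (0.52) and TRAF4 (0.78) were higher and TRAF7 (-0.37) was lower. Over all 12428 tested genes 2339 were higher and 2237 lower by that criterion. TRAF7 had the highest mean of them over the 6 samples and was at 26.5 ± 2.5 RPKM in shRNA-NC and 20.5 ± 2.1 RPKM in shRNA-UBC9 (SD, n = 3 each), where TRAF4 was above it at 24.7 ± 0.5 RPKM.

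All 25 genes of the receptor complex and its kinases were tested. For comparison, 5.2% of all tested genes were called higher and 2.7% lower. BIRC3, which encodes the TRAF-bound ubiquitin ligase cIAP2, was the 1 gene called higher, from 1.30, 3.05 and 0.755 RPKM to 9.06, 7.79 and 6.34 RPKM (log2 fold change 2.32, standard error 0.40, adjusted p = 0.00336, limma), and 0 were called lower. At an adjusted p below 0.05 without the fold threshold 11 were higher and 6 lower, against 2339 and 2237 of the 12428 tested genes. The median log2 fold change was 0.23. RBCK1, a subunit of the linear ubiquitin ligase, had the highest mean over the 6 samples among the 25 and a log2 fold change of 0.70. In shRNA-NC alone FADD was above it, at 34.3 ± 1.5 against 24.1 ± 1.8 RPKM (SD, n = 3 each). MAP3K14, the kinase NIK of the non-canonical pathway, was chosen after its values were seen: it had 5.32 ± 0.33 and 2.83 ± 0.13 RPKM (SD, n = 3 each), and limma gave -0.89 on the log2 scale (adjusted p = 0.000387, limma).

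Of 24 genes known to respond to TNF, 20 were tested, with a median log2 fold change of 1.88. Among them 12 were called higher and 0 lower, against 5.2% and 2.7% of all tested genes. This list was written with earlier results of these samples known, so its direction is not independent evidence. The 6 with the largest log2 fold changes were IL6 (5.38), CXCL2 (4.97), CXCL8 (4.78), CXCL1 (3.81), TNFAIP3 (3.42) and SOD2 (2.60). IL6 and the CXCL genes encode secreted cytokines, TNFAIP3 the feedback inhibitor A20 and SOD2 a mitochondrial superoxide dismutase. Not every member of the list moved: VCAM1 was at most 0.037 RPKM in any sample, CCL2 was at 0 in all 6, and IRF1 had a log2 fold change of -0.46 (adjusted p = 0.0834, limma). In shRNA-NC replicate 2 was highest for 18 of the 20 tested genes and replicate 3 was lowest for 18. TNF and LTB had the same order in shRNA-NC, with replicate 2 highest and replicate 3 lowest. What set this order was not tested.

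**Figure D4:**
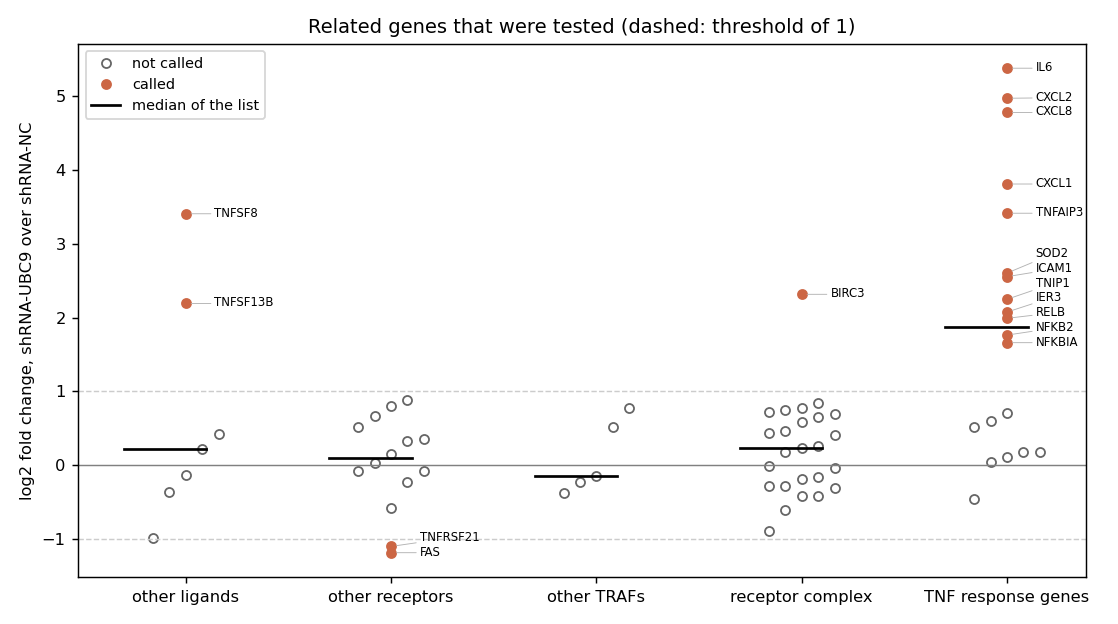
Log2 fold changes, shRNA-UBC9 over shRNA-NC, of the tested genes of 5 related lists, with filled points for called genes, open points for the others and a bar at the median of each list. The TNF response genes have 12 called genes and a median of 1.88, while the medians of the other 4 lists lie between -0.15 and 0.23. Of all tested genes 5.2% were called higher and 2.7% lower.

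To find genes with a pattern like that of TNF, log2 values were centred on each gene's own mean and compared over the 6 samples by the root mean square difference. The 5 closest of the tested genes were ZC3H12A (0.24), ICAM1 (0.28), MIR3142HG (0.29), TNFAIP3 (0.34) and CTC-378H22.1 (0.37), where the median over all tested genes was 1.58. ZC3H12A, which encodes the mRNA-degrading enzyme regnase-1, had 5.98, 7.47 and 2.65 RPKM in shRNA-NC and 31.5, 36.3 and 37.5 RPKM in shRNA-UBC9. For TRAF1 the 5 closest were HIVEP2 (0.07), CDCP1 (0.08), CDKN1A (0.09), ZNF697 (0.09) and MAFF (0.10), against a median of 1.03. ICAM1 and TNFAIP3 are also among the TNF response genes. These likenesses are descriptions over samples that share 1 comparison.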

How the data were processed

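RNA-seq was performed on T24 cells, 3 shRNA-NC and 3 shRNA-UBC9 samples, grouped by their labels. The authors deposited RPKM values per gene, made in the CLC Biomedical Genomics Workbench on GRCh38. Adaptors had been removed from the reads, and mapping options were left unchanged. The annotation release, the counting of multi-mapping reads and the strand setting are not given in the sources used here. RPKM values do not correct for RNA composition.

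The value of 1 read was found in each sample from genes with 1 exon in GENCODE release 44, and the smallest gene length giving whole reads in all 6 samples (within 0.001 read) was then taken, which succeeded for 100.0% of the 12428 tested genes. No pair of samples shared a value above 0 for any gene. Intervals on reads cover counting error only.

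Groups were compared with limma 3.58.1 (R 4.3.3; lmFit, eBayes with trend) on log2(RPKM + 0.1), adjusted over all tested genes. The thresholds are those of the study. Ratios were compared by exact permutation tests (scipy 1.17.1). The named genes are the members, called genes of each related list (the 6 largest for TNF response genes), the gene of each list with the highest mean over the 6 samples and the 5 genes most like TNF or TRAF1. TNFSF10, TNFSF11, TNFRSF10A, TRAF3, TRAF4, FADD, MAP3K14, VCAM1, CCL2 and IRF1 are outside this rule and were chosen after their values were seen. The level of the targeted gene is not reported here. The members and lists were chosen with earlier results of these data known. The test was checked on simulated data. Alternatives were other pseudocounts, filters, scalings and thresholds, no trend, a replicate block, leaving out each sample, and limma voom on the recovered reads, which, like the read ratios with single samples left out, was chosen after seeing the data. Other calculations used Python 3.11.15, numpy 2.4.6 and pandas 2.3.3, with figures by matplotlib 3.10.9.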

Additional observations from a re-analysis of the deposited data

How the results depend on the processing

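TNF, TNFRSF11B and TRAF1 kept their direction and call in every alternative in which they were tested, with log2 fold changes of 1.98 to 3.35, 1.42 to 1.88 and 1.35 to 2.17. TNFRSF9 was called in 13 of 14 and lost its call with a pseudocount of 1 (0.69). With at least 1 RPKM required in all 6 samples 4 members were tested and 1 was called, because TNF, TNFRSF9 and TRAF1 no longer passed the filter. With each sample left out 4 members were called every time, and 16 to 17 related genes. Over all alternatives 12 (stricter filter) to 19 (no filter) related genes were called, against 17. With a pseudocount of 1 there were 14 higher and 0 lower, against 15 and 2. LTB turned to -0.13 without shRNA-NC replicate 3, and ranged from there to 0.99 with single samples left out. TRAF2 turned to -0.0062 with median scaling and to -0.032 without shRNA-NC replicate 3, and ranged from there to 0.108 with single samples left out. Neither was called in any alternative. With a pseudocount of 1 the difference in log2 ratio was 1.31 for TRAF1 to TRAF2, 0.43 for TNFRSF1B to TNFRSF1A and -1.77 for LTB to TNF, and with 0.01 it was 2.58 for TNFRSF1B to TNFRSF1A.

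The labels number the samples 1 to 3 in both groups. Samples with the same number had correlations of deviations from the group means of -0.37, 0.07 and -0.17 over the tested genes, so the numbers were not taken to pair them. With the number as a replicate block 4 members and 17 related genes were called, as without it, and the calls over all genes went from 646 higher and 335 lower to 642 and 332. Over all genes a pseudocount of 1 left 391 higher and 161 lower, and the stricter filter 342 and 210.

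Limma voom on the recovered reads gave log2 fold changes of 3.08 for TNF, 3.43 for TNFRSF9, 1.72 for TNFRSF11B and 2.17 for TRAF1. Depth limits TNFRSF1B and TNFSF15, which rest on 10 and 34 reads over the 3 shRNA-NC samples.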
